A study of Homo sapiens with 6 samples.

Results

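The genes described here are 7 epithelial keratins, among them those by which hepatocytes and bile duct cells are told apart: the type II keratins KRT7, KRT8 and KRT80 and the type I keratins KRT10, KRT18, KRT19 and KRT23. They were chosen by gene symbol, as 7 of the 58735 genes in the deposited expression table. Keratins are the intermediate filament proteins of epithelial cells, and a filament forms only when a type I keratin pairs with a type II keratin. Hepatocytes of the healthy liver carry the KRT8 and KRT18 pair, whereas the cells lining bile ducts also carry KRT7 and KRT19, which is why these latter genes serve as markers of the biliary lineage. In stressed hepatocytes, KRT8 and KRT18 also form inclusions together with ubiquitin, SQSTM1 (p62) and heat shock proteins.

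The libraries came from Hep-G2, which the study counts among its hepatocellular carcinoma (HCC) lines and which is labelled as hepatocytes. The cells had received a short hairpin RNA by lentivirus and been selected with puromycin. The control group, sh-NC (3 libraries), carried a non-targeting hairpin and is labelled WT, and the other group, sh-CLGN (3 libraries), carried a hairpin against CLGN and is labelled a CLGN knock down. CLGN codes for calmegin, which helps proteins fold in the endoplasmic reticulum, and the study asked what its loss does in HCC cells. Each group rests on 1 hairpin sequence, and all 6 libraries carry the batch label 0DAY. Nothing in the labels says that the 3 libraries of a group came from separate cultures, so p-values measure only the spread between these libraries.

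Levels are in FPKM, fragments scaled to gene length and library size, and the reads behind them summed to between 14955816 and 16244639 per library. CLGN itself stood at 9.48, 8.88 and 8.60 FPKM in sh-CLGN against 24.1, 21.0 and 26.1 FPKM in the controls, that is, at 37.8% of their mean. The comparison was broad: of 13074 genes tested, 26.7% were higher and 39% lower in sh-CLGN at an adjusted p of at most 0.05 (limma, Benjamini-Hochberg), and 6.28% passed that threshold with a log2 fold change of at least 1 in either direction. The median gene changed by -0.08 on the log2 scale. Converting the values to TPM moved that median by 0.11 and scaling by total reads moved it by 0.16, and the share of higher genes among those called went from 40.7% to 52.2% and 59.2%. All 14 hepatocyte markers examined were expressed, with summed levels of 7994 to 8494 FPKM in sh-CLGN against 7916 to 8131 FPKM in sh-NC. Without AFP, named after its values were seen because it is the most abundant of them, the sums were 4330 to 4551 against 5294 to 5340 FPKM.

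Of the 7 keratins, 5 reached 1 FPKM in at least 3 libraries and were tested. At the adjusted p threshold 2 of them, KRT8 and KRT19, were higher in sh-CLGN, where 26.7% of all genes were, and 1, KRT23, was lower, where 39% of all genes were. KRT23 alone also reached a log2 fold change of 1, as 6.28% of genes did. The libraries of both groups did not overlap for 3 of the 5, against 70.2% of all genes tested, so the share of keratins that moved was close to that of the transcriptome. The median change of the 5 was 0.19, beside -0.08 over all genes tested.

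**Figure D1:**
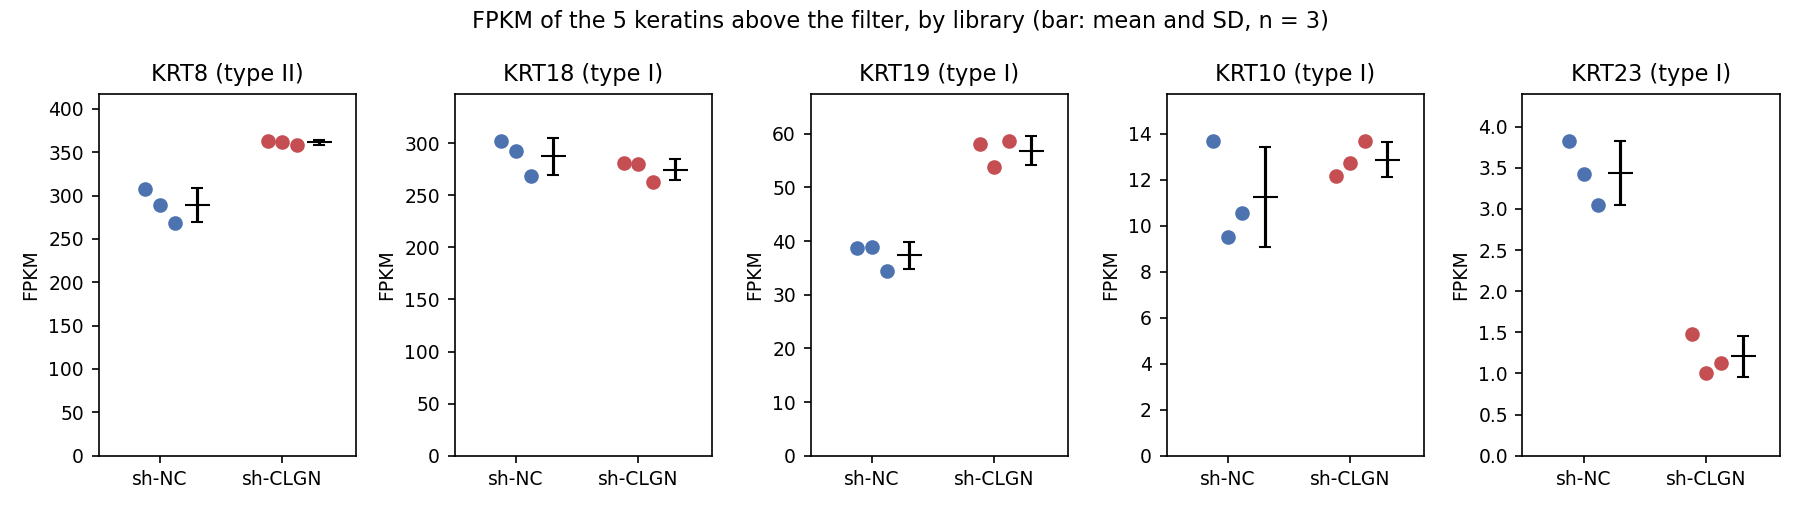
FPKM of the 5 tested keratins in each library (y axis, linear and starting at 0), with sh-NC in blue and sh-CLGN in red and bars giving the mean and SD of 3 libraries. KRT8 and KRT19 lie above and KRT23 below every control library, whereas KRT18 and KRT10 overlap between groups.

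KRT8, the type II partner on which all type I keratins of hepatocytes depend, was the most abundant keratin in sh-CLGN, and its libraries overlapped with those of KRT18 in sh-NC. Its levels were 363, 362 and 359 FPKM in the 3 sh-CLGN libraries and 308, 289 and 269 FPKM in the sh-NC libraries. Every sh-CLGN library was above every control, and the sh-CLGN libraries lay much closer together (SD 2.38) than the controls (SD 19.6). KRT8 rose by 0.33 on the log2 scale (SE 0.058, limma Benjamini-Hochberg adjusted p = 0.00157), a 1.25-fold increase backed by 28612 to 42398 reads per library. It ranked 72 among the 13074 tested genes by mean FPKM.

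The other type II keratins were at or near 0. KRT7, the bile duct partner of KRT19, had 1, 2 and 0 reads in the sh-CLGN libraries and no read in any control. A count of 0 allows up to 3 reads, or 0.0474 to 0.0525 FPKM in the sh-NC libraries, so no difference was detectable at this depth. KRT80, a type II keratin of stratified and simple epithelia, had 1 read in 1 library of each group and none elsewhere. Neither gene was tested, and KRT8 therefore supplied nearly all type II keratin RNA, 99.9946% of its FPKM in sh-CLGN against 99.9982% in sh-NC.

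KRT18, the type I partner of KRT8 in hepatocytes, did not pass the test. It stood at 281, 280 and 263 FPKM in sh-CLGN and at 302, 292 and 268 FPKM in sh-NC. The groups overlapped, and the difference of -0.07 on the log2 scale had a 95% interval from -0.20 to 0.07 (limma Benjamini-Hochberg adjusted p = 0.366). The sign depended on the scaling: the difference was 0.06 in TPM, 0.13 after scaling by total reads, 0.17 after removal of the trend with GC content and 0.25 after quantile normalization, the last 2 past the adjusted p threshold. Relative to the median of all genes, KRT18 was 0.01 higher in the reported fit, 0.03 in TPM, 0.05 with total reads, 0.17 after GC correction and 0.26 after quantile normalization.

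KRT19, the type I keratin of bile duct and progenitor cells, rose furthest among the keratins. Its levels were 58.1, 53.8 and 58.7 FPKM in sh-CLGN against 38.7, 38.9 and 34.5 FPKM in sh-NC. No library of one group reached the other, and the log2 fold change was 0.60 (SE 0.063, limma Benjamini-Hochberg adjusted p = 9.66e-05). KRT19 is thus detected at a 1.52-fold higher level while KRT7, the other classical biliary keratin, remained at or below 2 reads.

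KRT10, best known from the upper layers of the epidermis, was present at a lower level. It measured 12.2, 12.7 and 13.7 FPKM in sh-CLGN and 13.7, 9.52 and 10.6 FPKM in sh-NC. One control library, sh-NC replicate 1, lay as high as the highest sh-CLGN library, while the other 2 controls lay below all of them. With all libraries the difference was 0.19, with a 95% interval from -0.08 to 0.46 (limma Benjamini-Hochberg adjusted p = 0.181). Without sh-NC replicate 1 it was 0.33 and passed the threshold (adjusted p = 0.00792), and it also passed in TPM (0.33), with total reads (0.37), after quantile normalization (0.36) and after GC correction (0.38).

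KRT23, a type I keratin of low abundance, was the keratin that fell. It stood at 1.48, 1.01 and 1.13 FPKM in sh-CLGN and at 3.83, 3.42 and 3.05 FPKM in sh-NC, from 48 to 73 and from 137 to 155 reads. The groups were well apart, and the mean in sh-CLGN was 35.2% of control. On the log2(FPKM + 1) scale, which understates changes at this level, it fell by 1.01 (SE 0.107, limma Benjamini-Hochberg adjusted p = 0.000101). That value lay just past the fold threshold of 1: it was -1.44 with a pseudocount of 0.1, but -0.94 without sh-NC replicate 1, -0.94 without sh-CLGN replicate 2, -0.99 without sh-CLGN replicate 3, -0.88 with total reads and -0.85 after GC correction. The adjusted p stayed within the threshold in each of these.

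The GC content of the 5 tested keratins, taken from the longest annotated transcript of each, ranged from 50.3% in KRT23 to 61.8% in KRT19. Tested genes within 2 percentage points of each had median log2 changes between -0.24 (KRT19 and KRT18) and -0.17 (KRT23), below the median of all genes. KRT8, at 56.2%, had 1511 such genes with a median of -0.23. After removal of the GC trend the changes were 0.56 for KRT8, 0.87 for KRT19 and -0.85 for KRT23.

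**Figure D2:**
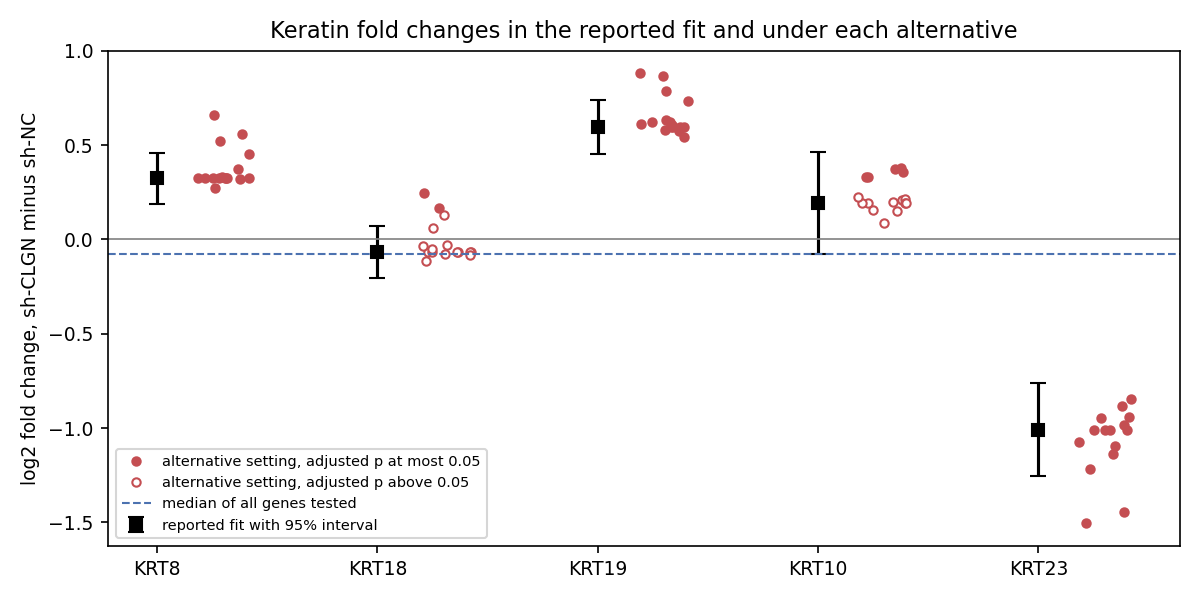
Log2 fold change (y axis, sh-CLGN minus sh-NC) of each tested keratin in the reported fit (black squares, 95% interval) and under each alternative setting (red points, filled where the adjusted p is at most 0.05). KRT8 and KRT19 stay above and KRT23 below 0, while KRT18 crosses 0 and KRT10 crosses the p threshold.

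Since type I and type II keratins assemble in equal amounts, their balance was compared within each library, where a scaling factor common to all genes cancels. The KRT18 to KRT8 ratio of FPKM was 0.774, 0.774 and 0.733 in sh-CLGN against 0.982, 1.01 and 0.998 in sh-NC. The groups did not overlap, and the mean fell from 0.997 ± 0.0145 to 0.760 ± 0.0239 (SD, n = 3; two-sided exact permutation p = 0.1, the smallest that 3 against 3 libraries can give). The change of -0.39 on the log2 scale stayed between -0.41 and -0.36 under quantile normalization and when any 1 library was left out. The ratio of summed type I to summed type II keratins, which adds the rise of KRT19, went from 1.18 ± 0.0129 to 0.957 ± 0.0173 (exact permutation p = 0.1), again without overlap. Its log2 change was -0.30.

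The level of the KRT18 to KRT8 ratio, unlike its change, depends on the gene length used. The table divides reads by the union of all annotated exons, 6881 bases for KRT8 and 3218 for KRT18, against 2126 and 1562 bases in their principal transcripts. With the latter lengths the KRT18 to KRT8 ratio was 0.484 in sh-CLGN against 0.634 in sh-NC. Its log2 change was necessarily the same, since a length factor is equal in every library. The order of KRT8 and KRT18 in sh-NC, where their means were 289 and 288 FPKM and their libraries overlapped, is therefore not settled by these values. In sh-CLGN they did not overlap. The remaining order was KRT19, KRT10 and KRT23 in both groups, each neighbour separated by more than the spread of its libraries, and KRT7 and KRT80 last and not separated from each other.

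**Figure D3:**
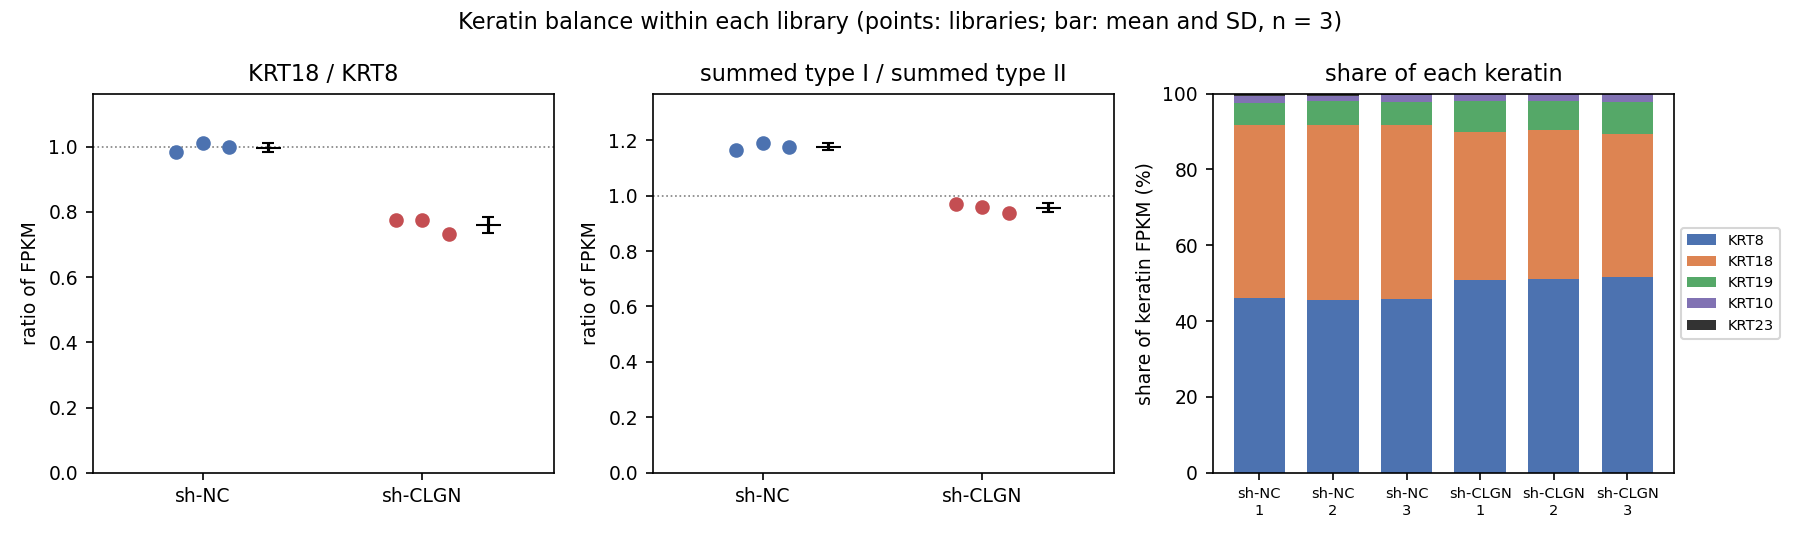
Left and middle, ratio of KRT18 to KRT8 FPKM and of summed type I to summed type II FPKM in each library, with mean and SD (n = 3) and a dotted line at 1; right, share of each keratin in the summed FPKM of a library, in percent. Both ratios are lower in every sh-CLGN library, and KRT8 and KRT19 take larger shares there.

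Summed over the members, keratin reads made up 0.381% ± 0.00725 of all reads after CLGN knockdown, compared with 0.285% ± 0.0159 in control libraries (SD, n = 3, exact permutation p = 0.1). The difference was smaller in FPKM, which is scaled to length and to an implied library size. That size was 1.07 to 1.08 times the read total in sh-CLGN against 0.933 to 0.953 in sh-NC. In FPKM the members summed to 707 ± 10.9 in sh-CLGN against 628 ± 41.1 in sh-NC (exact permutation p = 0.1). Type I keratins alone summed to 346 ± 8.52 against 340 ± 21.5 FPKM (exact permutation p = 0.8). KRT18 supplied 79.5% of type I FPKM in sh-CLGN against 84.7% in sh-NC, while KRT19 went from 11.0% to 16.5%. KRT10 supplied 3.31% and 3.73%, and KRT23 1.01% and 0.349%. In bulk RNA, more cells of a kind and more RNA per cell cannot be told apart, and this holds for each value given here.

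KRT8, KRT18, KRT7 and KRT80 lie in the type II keratin cluster on chromosome 12 and the others in the type I cluster on chromosome 17 (GRCh38). KRT8 (chr12:52897187-52949954, minus strand) and KRT18 (chr12:52948871-52952901, plus strand), the only type I keratin in the type II cluster, are annotated with 525 exonic bases in common on opposite strands, 16.3% of the KRT18 exons. Whether reads were counted by strand is not given in the sources used here, so reads in that stretch could not be told apart. KRT10 (chr17:40818117-40822595) shares 56 exonic bases with TMEM99, whose mean in sh-CLGN was 166% of control. KRT23 (chr17:40922696-40937634) shares 186 with an antisense gene that had at most 1 read per library. Between the principal transcripts of the 5 tested keratins, the longest identical stretch was 29 bases, in KRT19 and KRT23, and 15 bases in KRT8 and KRT18.

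Keratin pseudogenes, chosen by gene name, were examined too. Many are processed, that is, copies of messenger RNAs inserted elsewhere in the genome, while KRT18P55 and KRT17P7 are annotated as unprocessed. Of 136 keratin pseudogenes in the table, 3 passed the filter and 86 had no read. The most abundant, KRT17P8, shares up to 35 identical bases with KRT19 and up to 20 with its namesake KRT17, which had 1 read in each sh-CLGN library and none in the controls. KRT8P12 shares up to 53 identical bases with KRT8. A stretch of KRT19 (chr17:41525214-41525273, minus strand) is shown with its counterpart in KRT17P8 (chr12:9127917-9127976, plus strand). Capitals mark the bases that differ, and both are reference sequences from GENCODE transcripts on GRCh38, shown because both genes were higher in sh-CLGN.
KRT19: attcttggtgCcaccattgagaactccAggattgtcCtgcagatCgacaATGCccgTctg
KRT17P8: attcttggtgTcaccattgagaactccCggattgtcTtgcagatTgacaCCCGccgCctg

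The KRT19 pair differs at 9 of these 60 bases and over its aligned length is 84.2% identical, and KRT8 and KRT8P12 are 90.7% identical over theirs. KRT17P8 stood at 16.9, 15.6 and 15.5 FPKM in sh-CLGN and at 11.2, 12.4 and 10.2 FPKM in sh-NC, a rise of 0.48 (SE 0.075, limma Benjamini-Hochberg adjusted p = 0.000787). KRT8P12 stood at 3.46, 4.08 and 4.51 FPKM against 1.12, 1.07 and 1.67 FPKM, a rise of 1.14 (SE 0.124, adjusted p = 0.000116 by the same method). Both groups of libraries were apart for each pseudogene, as for the keratin it resembles. KRT8P12 also overlaps the exons of KPNA4 by 142 bases on chromosome 3.

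The third, KRT8P3, averaged 1.75 ± 0.324 FPKM in sh-CLGN and 1.24 ± 0.394 FPKM in control libraries (SD, n = 3) and did not pass (difference 0.31, 95% interval -0.03 to 0.64, limma Benjamini-Hochberg adjusted p = 0.0924). All 50 KRT8 pseudogenes together held 85 to 258 reads per library, 0.542% to 0.648% of the KRT8 reads in sh-CLGN, compared with 0.287% to 0.367% in control libraries. For the 67 KRT18 pseudogenes the shares were 0.338% to 0.404% against 0.162% to 0.277%. Adding these reads to their parents left the KRT18 to KRT8 ratio at 0.996 and 0.759.

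Other keratins were nearly silent. Of 59 further keratin genes in the table, none reached the filter of 1 FPKM in at least 3 libraries, 46 had no read at all, and the highest, KRT222, averaged 0.270 FPKM.

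Keratin filaments are anchored at desmosomes by plakins and armadillo proteins. A list of 20 genes held these together with desmosomal cadherins, PERP and the hemidesmosome integrins ITGA6 and ITGB4. Of the 20 genes 14 were tested, 5 were higher, 5 were lower and 4 did not pass, with a median change of -0.09 beside -0.08 for all genes. DST (dystonin, a plakin) rose by 1.30 from 3.09 to 9.02 FPKM, JUP (plakoglobin) by 0.66 and MACF1, a plakin that joins microtubules and actin, by 0.61. PKP3 (plakophilin) fell by 0.59. Under the 4 other scalings 5 or 6 were higher and 1 to 4 lower, and the 4 genes named kept their directions.

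Among 16 other intermediate filament genes 7 were tested, of which 2 were higher and 4 lower. VIM (vimentin, the mesenchymal filament protein) rose by 0.77, from 49.5 to 85.1 FPKM. NES (nestin, a progenitor filament protein) fell by 0.85, and the nuclear lamins LMNB2 and LMNB1 were lower too, with log2 changes of -0.73 and -0.68. All 4 kept their directions under the other scalings. The median of the list was -0.38, and after GC correction it was -0.15, with 3 higher and 3 lower.

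Proteins that bind, modify or collect with keratins gave 22 tested genes of 23, of which 5 were higher, 10 lower and 7 not past the threshold, with a median of -0.15 that turned to 0.09 after quantile normalization and 0.03 with total reads. HSPA8, the constitutive Hsc70 chaperone, rose by 0.85 from 169 to 305 FPKM. YWHAG, a 14-3-3 protein from the family that binds phosphorylated KRT18, fell by 1.30 from 116 to 46.4 FPKM. The crosslinking enzyme TGM2 fell by 0.85, and FAM83H, which brings casein kinase to keratin filaments, fell by 0.93. SQSTM1, singled out after its values were seen because it is a defining part of keratin inclusions, fell by 0.61 (limma Benjamini-Hochberg adjusted p = 5.09e-05), and was -0.49 to -0.32 under the other scalings. The heat shock genes HSPA1A and HSPA1B, near-identical copies whose reads may be split between them, were singled out in the same way and rose by 0.92 and 0.78, and by more under the other scalings. Under the other scalings 8 or 9 of the 22 were higher and 6 to 10 lower.

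Bile duct and progenitor markers, the company in which KRT19 is usually found, moved both ways. Of 21 genes 15 were tested, 8 were higher, 6 lower and 1 did not pass, while under the other scalings 7 or 8 were higher and 3 to 6 lower. PROM1 (CD133) rose by 1.10 from 17.8 to 39.2 FPKM, SPP1 (osteopontin) by 1.30 from 1.58 to 5.29 FPKM and CDH1 (E-cadherin) by 0.73. SOX9, the biliary transcription factor, fell by 1.32 from 93.8 to 36.9 FPKM, and SOX4 fell by 0.59. These 5 kept their directions under every other scaling. The median was 0.18, and 0.09 to 0.36 under the other scalings. Summed levels were 637 to 645 FPKM in sh-CLGN against 561 to 581 FPKM in sh-NC. Without CD24, named after its values were seen because it is the most abundant of them (345 against 221 FPKM), the sums were 290.3 to 303 against 345 to 349 FPKM.

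The list of epithelial factors was mixed. Beside activators of epithelial genes it held their repressors SNAI1, SNAI2, ZEB1 and ZEB2, general factors such as SP1, and the splicing regulators ESRP1 and ESRP2. Of 16 tested out of 30, 11 fell, 1 rose and 4 did not pass, with a median of -0.52, and 9 to 11 were lower under the other scalings. The 1 that rose was SNAI1 (0.37), and ZEB1 did not pass. FOS, among the 11, reached the filter only through sh-NC, with at most 0.976 FPKM in sh-CLGN. Those named by the rule were JUNB (log2 change -1.42), KLF5 (-1.28), ELF3 (-1.25) and JUN (-0.99). KLF5 and ELF3 are factors of simple epithelia, and JUN and JUNB are subunits of AP-1. TP63 and TFAP2C, factors of stratified epithelium, were below the filter, the latter with no read. KLF4 and GRHL1 of the same list were expressed and tested. KLF4 fell by 0.69 from 5.54 to 3.05 FPKM, and GRHL1 did not pass (3.22 FPKM in sh-NC and 2.99 FPKM in sh-CLGN).

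**Figure D4:**
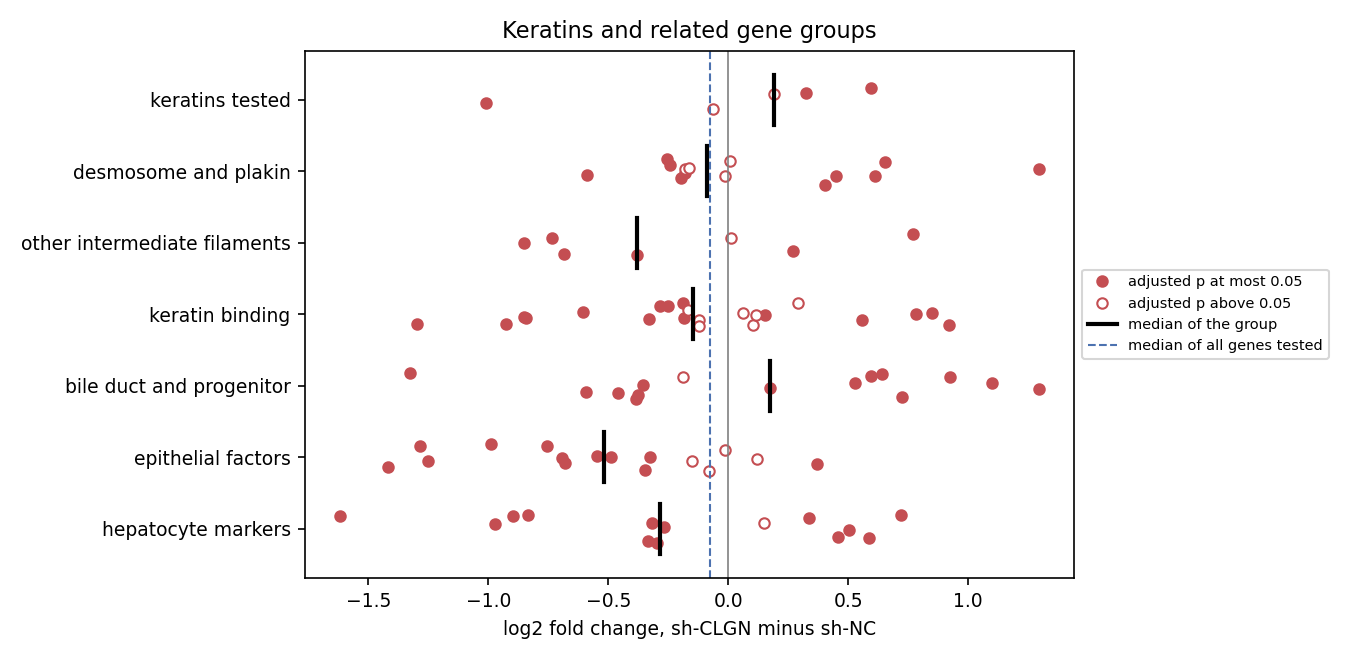
Log2 fold change (x axis, sh-CLGN minus sh-NC) of every tested gene in the keratin set and in 6 related groups, filled where the adjusted p is at most 0.05, with black bars at group medians and a dashed line at the median of all genes tested. The epithelial factors sit furthest to the left, with a median of -0.52, and the keratins spread from -1.01 to 0.60.

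Hepatocyte markers, all 14 tested, were higher for 5 and lower for 8, or 6 and 4 to 8 under the other scalings. ALB (albumin) fell by 0.90 from 2007 to 1076 FPKM, TF (transferrin) fell by 1.62 and FGA (fibrinogen alpha) fell by 0.83, while FGB (fibrinogen beta) rose by 0.72. Markers of other cell types were examined beside these. The 5 tested fibroblast markers of 10 were all higher in sh-CLGN (4 after quantile normalization), and the list summed to 48.5 to 49.9 FPKM in sh-CLGN against 7.17 to 8.51 FPKM in sh-NC. COL1A2, a fibrillar collagen chain, made up most of it, going from 4.20 to 38.7 FPKM between group means, and COL1A1, LUM and COL3A1 rose by 1.69, 1.08 and 1.08. However, COL1A1, LUM and COL3A1 reached the filter only through sh-CLGN, since their highest control values were 0.377, 0.430 and 0.313 FPKM. Being tested and being higher were thus tied for them, and the count of 5 cannot be read as a result. FAP and POSTN had no read in any library, and DCN and THY1 stood at no more than 0.0105 FPKM. Among endothelial markers PECAM1 alone was tested and went from 3.21 to 2.46 FPKM, and KDR had no read. The change of PECAM1 (-0.28) kept its direction but passed the adjusted p threshold under only 1 of the 4 other scalings. Of 6 leukocyte markers 2 were tested: CD14 fell by 0.62, and LYZ changed by -0.19, a direction that turned under 2 of the 4 other scalings. CD14 reached the filter only through sh-NC, with at most 0.647 FPKM in sh-CLGN. Any part of these cell types in the keratin differences was not tested.

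The genes whose pattern over the 6 libraries was most like that of KRT8 were UBE2L6 (Pearson r = 0.999), GFI1 (r = 0.998) and HSPA1A (r = 0.996), on the log2(FPKM + 1) scale. For KRT23 they included MRPS16 (r = 0.999) and MRGBP (r = 0.998). The 6 points share their 2 groups of 3 libraries, and 3.57% of tested genes reached r of at least 0.95 with KRT8 and 17.2% with KRT23.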

How the data were processed

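RNA was sequenced from 6 Hep-G2 libraries prepared with a NEBNext Ultra kit. The submitters' processing notes name HISAT2 2.0.5, featureCounts and GRCh38, and gene positions equalled those of GENCODE 29. What the authors deposited is 1 table of FPKM, with the length of each gene. FPKM times length fell on whole steps for 100% of values (tolerance 0.01 of a read), which gave back the reads per gene. The scaling implied by the deposited FPKM was 1.07 to 1.08 times the read total in sh-CLGN against 0.933 to 0.953 in sh-NC. Groups came from the labels.

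Genes reaching 1 FPKM in 3 or more libraries (13074) were compared on log2(FPKM + 1) with limma 3.58.1 in R 4.3.3 (moderated test with intensity trend, two-sided, Benjamini-Hochberg adjustment over all genes), and thresholds were an adjusted p of 0.05 and a log2 fold change of 1. Simulated data of the same size returned 198 of 200 genes changed by 1.5 (log2), with 7 false calls. Only those 200 genes were changed, equally up and down, with an assumed spread and no scaling difference between groups. The simulation thus checks the code and gives no false call rate for these data. Ratios per library were compared by exact permutation. Intervals of fold changes come from limma and reflect the spread between libraries. The floor of 3 reads covers counting error only, since reads carry no molecular identifiers.

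Members and gene lists were chosen with earlier results of these data known. Named genes were the members, other keratins passing the filter, in each list the 4 genes with the smallest adjusted p and those past both thresholds, and the 3 genes most like KRT8 and like KRT23, of which 1 is not reported here. Alternatives were another pseudocount, other filters, TPM, quantile, read-total and GC scaling, voom, eBayes without trend, a replicate block and leaving out each library. Sequences were aligned with Biopython 1.88.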

Additional observations from a re-analysis of the deposited data

Results flagged for a closer look

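Reads of keratin pseudogenes that stayed below the filter were more frequent in every sh-CLGN library than in any control. These genes were not tested in the reported fit, but those of KRT8 and KRT18 are part of the pseudogene sums given above. The 133 genes held 6.86 to 8.55 of every 1000000 reads in sh-CLGN against 2.74 to 4.57 in sh-NC, a ratio of 2.10 between group means (two-sided exact permutation p = 0.1, the smallest possible). Over all 45661 genes below the filter the same ratio was 1.55, with 11791 to 11855 of every 1000000 reads in sh-CLGN against 7401 to 7770 in sh-NC. The 59 keratin genes outside the set, none of them past the filter, gave a ratio of 1.31 with overlapping groups.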

How the results depend on the processing

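Among 16 alternatives each, KRT8 (0.27 to 0.66) and KRT19 (0.54 to 0.88) kept their direction and stayed past the adjusted p threshold, as did KRT23 in its 15 (-1.50 to -0.85). KRT18 changed sign in TPM (0.062), after quantile normalization (0.25), with total reads (0.13) and after GC correction (0.17). KRT10 passed the threshold in TPM (0.33), after quantile normalization (0.36), with total reads (0.37) and after GC correction (0.38), and ranged from 0.089 to 0.33 when 1 library was left out, passing without sh-NC replicate 1. The count of keratins higher rose from 2 to 4 after quantile normalization and after GC correction. It was 3 in TPM, with total reads and without sh-NC replicate 1. Among all genes called, the share that was higher moved too, from 40.7% in the reported fit. It was 48.2% after quantile normalization, 48.9% after GC correction, 52.2% in TPM and 59.2% with total reads. With a filter of a mean of at least 3 FPKM, KRT23 was not tested, so 0 were lower and 0 passed both thresholds. The latter count was also 0 with total reads and after GC correction, and 0 to 1 when 1 library was left out. Apart from that filter, the cause of these shifts was not tested. Both ratios kept their direction in all 10 alternatives (-0.41 to -0.36 for KRT18 to KRT8, -0.33 to -0.28 for type I to type II). For KRT18 to KRT8, the alternatives that only change or drop the gene length cannot move the log2 change. They therefore say nothing about how stable it is. The length of the principal transcript and the addition of pseudogene reads were chosen after seeing the data.

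With the replicate number as a block, that is, a paired fit, the changes were 0.33, 0.60, -1.01, -0.07 and 0.19 for KRT8, KRT19, KRT23, KRT18 and KRT10, with 2 keratins higher, 1 lower and 1 past both thresholds, so the replicate block changed no call. Deviations of libraries with the same number correlated at -0.0184, -0.0460 and -0.146, and 0 of 6 libraries correlated best with its own number, so the numbers were not taken to pair the libraries. KRT7 and KRT80 gave no value in the reported fit and were not followed through the alternatives. Counts of 0 to 2 reads limit what can be said of them.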
